A study of Mus musculus with 12 samples.

Results

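The 9 genes described here are Wnt3, Wnt6, Wnt9b and Wnt11, which code for secreted Wnt ligands, Fzd5, Fzd7 and Fzd9, which code for frizzled receptors, and Lrp5 and Lrp6, which code for the co-receptors. They were chosen by symbol among the 55414 genes of a count table, and all 9 were found. The table holds 12 bulk RNA-seq libraries. Their cells were isolated from crypts of the small intestine and separated by flow cytometry into a Paneth and a non-Paneth fraction, and the C57BL/6J mice were 8 to 12 weeks old and had no treatment. The mice were wild type (WT) or GRKO, the latter carrying the GRvillinKO deletion of the glucocorticoid receptor gene Nr3c1. With 3 libraries each, the groups were WT Paneth, GRKO Paneth, WT non-Paneth and GRKO non-Paneth cells. Villin is active in the whole intestinal epithelium, so the deletion is meant for both cell fractions. Paneth cells were gated as CD24+ and cKIT+ cells of medium to high side scatter without blood or endothelial surface markers. The non-Paneth fraction holds the other sorted crypt cells and is a mixture of cell types. Nothing in the labels says whether libraries of 1 group came from separate mice, so p-values measure the spread between these libraries, which may in part be technical.

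Wnt proteins bind a frizzled receptor together with Lrp5 or Lrp6 at the cell surface. In the canonical pathway the bound complex halts the destruction of beta-catenin, which then enters the nucleus and acts with TCF/LEF factors on target genes. In the small-intestinal crypt, this signal keeps stem cells dividing and is also needed for Paneth cell maturation. Paneth cells sit between the stem cells and are known as an epithelial source of Wnt3, while the mesenchyme below the crypt provides other Wnt ligands.

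The libraries held 11126297 to 15910292 counts each. In Paneth libraries, 7 Paneth cell markers together took 356829 to 445131 CPM (counts per 1000000 counts of the library), against 441 to 1690 CPM in non-Paneth libraries. Levels in CPM of all other genes are therefore lowered in Paneth libraries. Fold changes were taken after TMM scaling, which divides out such differences in composition. Its factors were 0.656 to 0.826 in Paneth and 1.2 to 1.5 in non-Paneth libraries. Among the latter they did not overlap between the genotypes, at 1.2 to 1.22 in WT and 1.46 to 1.5 in GRKO. The targeted gene Nr3c1 was at 33 to 41.1 CPM in WT Paneth and 4.73 to 12.1 CPM in GRKO Paneth cells. In non-Paneth cells it was at 135 to 160 CPM in WT and 19.6 to 36.2 CPM in GRKO, and neither pair of groups overlapped. Defining fibroblast and endothelial markers were at or near 0, with sums of at most 4.45 and 0.629 CPM in any library, so the mesenchyme is hardly represented. Titles and the genotype field of the labels disagree, and the genotype was taken from the titles, which the level of Nr3c1 follows within each fraction in all 12 libraries.

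On the GRCm39 genome with the GENCODE vM39 annotation, the 9 genes lie on 6 chromosomes. Wnt3 (ENSMUSG00000000125) lies on chromosome 11 from 103664976 to 103708853 on the plus strand. Wnt9b (ENSMUSG00000018486) lies beside it, from 103618189 to 103640655 on the minus strand, so that both genes start 24.3 kb apart and run away from each other. Chromosome 1 holds Fzd7 (ENSMUSG00000041075, 59521269 to 59534685, plus strand), Fzd5 (ENSMUSG00000045005, 64769717 to 64776934, minus strand) and Wnt6 (ENSMUSG00000033227, 74810922 to 74824975, plus strand). Fzd9 (ENSMUSG00000049551) is a gene of a single exon on chromosome 5, from 135277792 to 135280084 on the minus strand. Wnt11 (ENSMUSG00000015957) lies on chromosome 7 from 98484319 to 98504402. The co-receptor genes are far longer, with 23 exons each in the canonical transcript. Lrp5 (ENSMUSG00000024913) lies on chromosome 19 from 3634821 to 3736643 and Lrp6 (ENSMUSG00000030201) on chromosome 6 from 134423439 to 134544212. Annotated genes on the opposite strand overlap 7 of the 9 genes, all but Wnt3 and Wnt9b. Since the sources used here do not give the strand setting of the counting, reads of such partners could not be told apart. Wnt3 is overlapped by Gm73057, a noncoding RNA gene on its own strand, from which strand does not separate it. No annotated gene overlaps Wnt9b.

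The 250 bases upstream of the start of the canonical transcript were read from GRCm39 for each gene. Those of Wnt3 (chr11:103664726-103664975, plus strand) and Fzd9 (chr5:135280085-135280334, minus strand) are shown because these genes were far higher in Paneth cells of both genotypes. That of Lrp6 (chr6:134544213-134544462, minus strand) is shown because it held the only match to the motifs searched. All are written 5′ to 3′ in the direction of the gene, with a motif match in capitals.
Wnt3: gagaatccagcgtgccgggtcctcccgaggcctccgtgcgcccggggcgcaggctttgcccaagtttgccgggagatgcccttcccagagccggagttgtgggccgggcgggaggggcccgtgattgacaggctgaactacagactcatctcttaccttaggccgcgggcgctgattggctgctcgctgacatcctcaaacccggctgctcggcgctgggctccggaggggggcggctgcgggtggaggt
Fzd9: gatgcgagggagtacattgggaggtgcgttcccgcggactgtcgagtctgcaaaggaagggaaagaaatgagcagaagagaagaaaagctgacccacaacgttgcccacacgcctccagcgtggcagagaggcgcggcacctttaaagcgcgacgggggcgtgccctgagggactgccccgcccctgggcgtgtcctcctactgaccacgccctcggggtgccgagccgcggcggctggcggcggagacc
Lrp6: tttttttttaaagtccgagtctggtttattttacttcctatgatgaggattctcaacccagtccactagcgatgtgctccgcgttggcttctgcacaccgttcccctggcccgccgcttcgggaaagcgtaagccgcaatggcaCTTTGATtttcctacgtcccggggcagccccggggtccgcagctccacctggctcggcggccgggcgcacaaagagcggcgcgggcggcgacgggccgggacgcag
Short motifs were searched on both strands. The TCF/LEF core was searched only as CTTTGAT, and its other forms were not searched. CTTTGAT was present in 2.85% of 21757 promoters of protein-coding genes and, among the 9, in Lrp6 alone, from base -106 to -100. The glucocorticoid receptor half-site AGAACA was present in 14.3% of the promoters and the TATA box TATAAA in 11.9%, and neither stood in any of the 9 windows. Their base composition was rich in G and C. It ranged from 56.8% in Wnt11 to 75.2% in Fzd5, against a median of 53.2% over all promoters.

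Levels between genes were compared as CPM per kilobase of exon. In WT Paneth cells, Wnt3 had the highest level of the 9 genes at 24.2 ± 4.55 (SD, n = 3) CPM per kilobase, followed by Fzd9 at 12.6 ± 2.11. Lrp5 at 5.68 ± 0.805 and Fzd5 at 5.22 ± 0.538 overlapped each other. Fzd7 at 3.15 ± 0.296 and Lrp6 at 2.29 ± 0.0983 came next without overlap. The other 3 ligands were at or below 0.134 CPM per kilobase. The order was quite different in WT non-Paneth cells, where receptors and co-receptors led. Fzd5 stood first at 21.9 ± 2.83 CPM per kilobase, and Lrp5 at 10.7 ± 0.836, Lrp6 at 5.13 ± 0.339 and Fzd7 at 4.5 ± 0.244 followed without overlap. Wnt3 at 0.592 ± 0.188 overlapped Wnt6 at 0.581 ± 0.406, and Fzd9 at 0.0882 ± 0.0723 stood in the place before the last. In GRKO Paneth cells, Wnt3 at 33.9 ± 4.6 and Fzd9 at 21.1 ± 3.1 CPM per kilobase led again. In GRKO non-Paneth cells, Fzd5 at 32 ± 2.84 and Lrp5 at 16 ± 1.99 led, with Fzd7 at 8.11 ± 0.593 now above Lrp6 at 6.35 ± 0.865. With the longest transcript in place of all exons, only neighbours that overlap changed places.

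**Figure D1:**
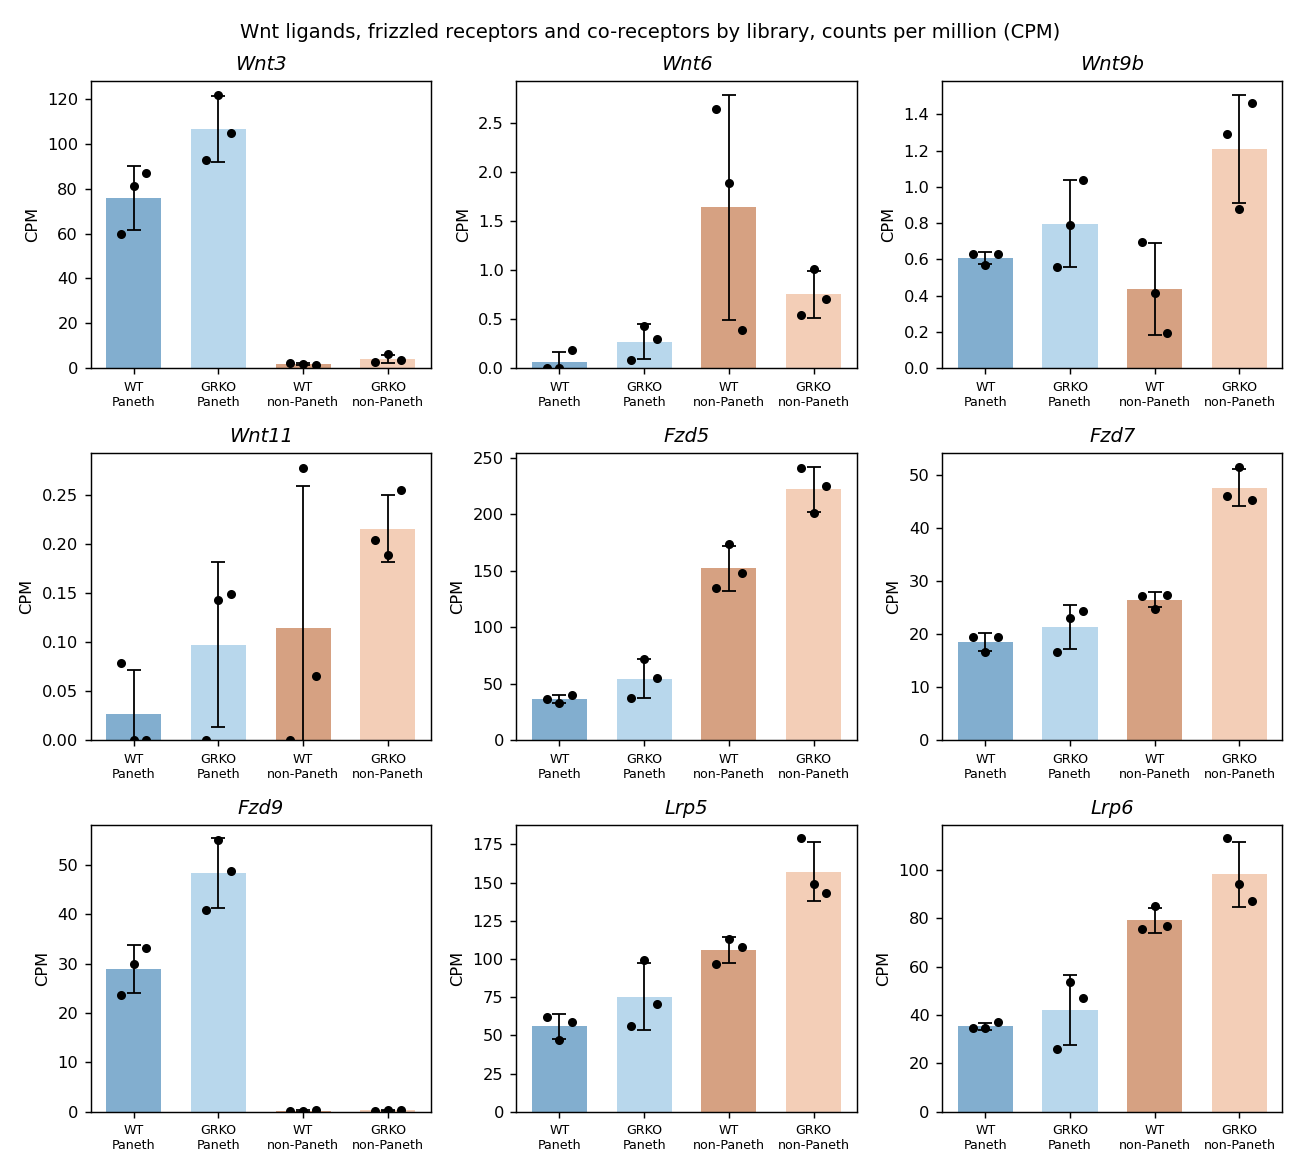
Level of each of the 9 genes in CPM (y axis, linear from 0, with its own range in each panel) in the 4 groups of libraries (x axis). Points are single libraries, bars the mean and error bars the SD (n = 3, cut at 0). Wnt3 and Fzd9 are high in Paneth and near 0 in non-Paneth libraries, while Fzd5, Lrp5 and Lrp6 stand higher in non-Paneth libraries on this scale.

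Among the ligands, Wnt3 made up nearly all of the Wnt message of Paneth cells. Its level was 59.9, 81.4 and 87 CPM in WT Paneth libraries and 92.9, 122 and 105 CPM in GRKO Paneth libraries. In non-Paneth libraries it was 2.48, 1.81 and 1.3 CPM in WT and 2.58, 6.1 and 3.57 CPM in GRKO. Every Paneth library thus lay far above every non-Paneth library. Wnt3 was 67.8-fold higher in Paneth cells in WT (log2 fold change 6.08, SE 0.321, edgeR quasi-likelihood test, adjusted p = 1.09e-08) and 51-fold higher in GRKO (5.67, SE 0.298, edgeR adjusted p = 2.19e-08). In a bulk sample, fewer cells of a type and less RNA per cell cannot be told apart. The CPM of Wnt3 in WT non-Paneth libraries was 1.71 to 3.26% of its mean in Paneth libraries. For the 7 Paneth cell markers, this share was 0.0392 to 1.19% in WT. In GRKO it was 2.42 to 5.72% for Wnt3 and 0.0732 to 1.7% for the markers, so Wnt3 lay above the range of the markers in both genotypes.

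The other ligands were rare. Wnt6 had 0, 0 and 2 counts in WT Paneth libraries against 34, 27 and 6 counts in WT non-Paneth libraries, so the groups did not overlap. It was lower in WT Paneth cells (log2 fold change -4.02, SE 1, edgeR adjusted p = 0.0035), a value that rests on 2 counts. It was -7.37 without WT Paneth replicate 3, which held both counts, -3.38 without WT Paneth replicate 1, and -3.40 with both WT libraries numbered 2 left out. The ratio of the summed counts after TMM scaling was 0.057, with a 95% counting interval from 0.00677 to 0.214. Wnt6 had 1, 6 and 4 counts in GRKO Paneth and 8, 16 and 11 counts in GRKO non-Paneth libraries, and the difference did not pass the test (-0.49, SE 0.781, edgeR adjusted p = 0.656). Wnt9b, the neighbour of Wnt3, had 8, 7 and 7 counts in WT Paneth and 9, 6 and 3 counts in WT non-Paneth libraries, which overlap (1.19, 95% interval 0.09 to 2.29, edgeR adjusted p = 0.0678). In GRKO it had 7, 11 and 14 counts in Paneth and 19, 14 and 23 counts in non-Paneth libraries. Per kilobase, Wnt3 exceeded Wnt9b 137- to 206-fold in WT Paneth and 5.12- to 9.59-fold in WT non-Paneth libraries, so the pair did not share its pattern. Wnt11, with sums of 1, 4, 5 and 10 counts in WT Paneth, GRKO Paneth, WT non-Paneth and GRKO non-Paneth cells, did not pass the filter on low counts and was not tested.

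Set against all 19 Wnt genes, Wnt3 took 96.8 ± 0.512% of the summed level per kilobase in WT Paneth and 97.2 ± 0.287% in GRKO Paneth cells (SD, n = 3). Its share in WT non-Paneth cells was 38 ± 6.32%, beside 32 ± 14.7% for Wnt6 and 5.67 ± 1.12% for Wnt9b. In GRKO non-Paneth cells Wnt3 took 57.4 ± 11.7%, Wnt6 12 ± 0.895% and Wnt9b 13 ± 5.19%. Those shares divide a summed level of only 0.914 to 2.23 CPM per kilobase in WT non-Paneth libraries, against 19.8 to 28.5 in WT Paneth libraries. Wnt1, Wnt2b, Wnt3a, Wnt7a, Wnt7b, Wnt8b and Wnt16 had no count in any library. Over the 165098846 counts of all libraries, a count of 0 allows up to 0.018 CPM for each, which covers counting error only.

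**Figure D2:**
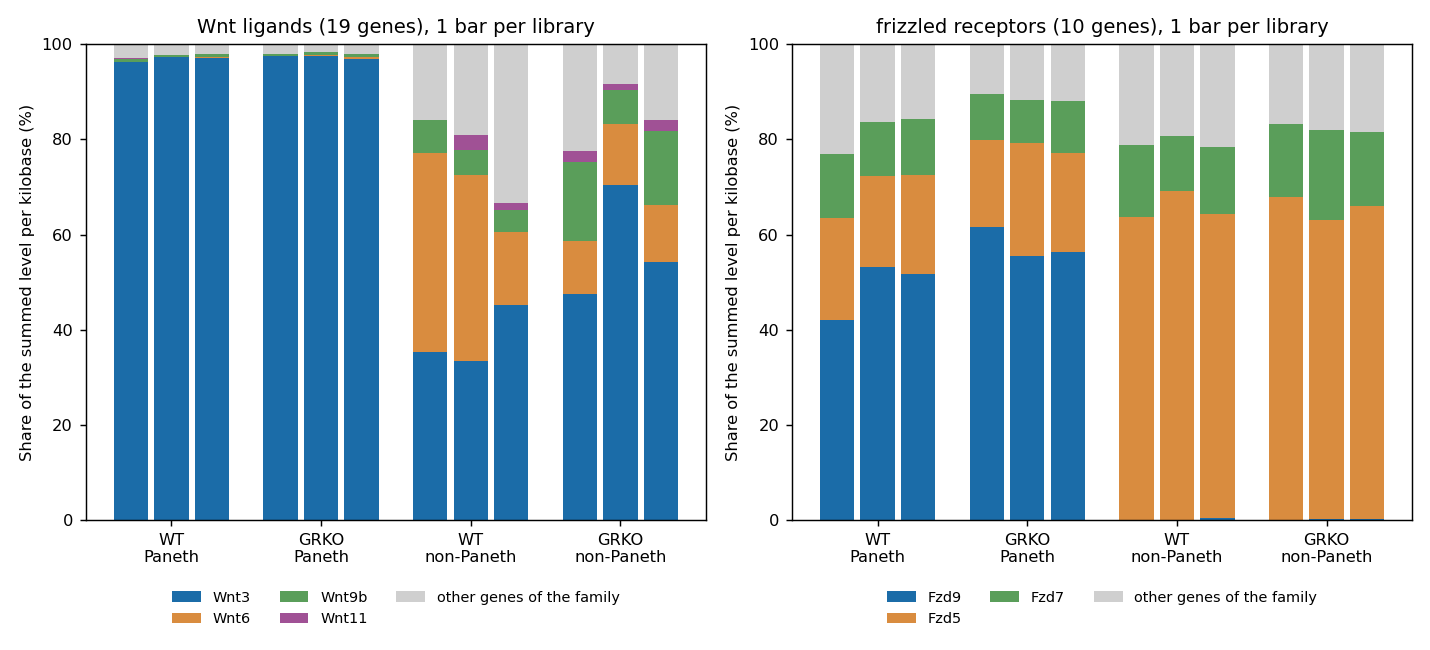
Share of the summed level per kilobase (y axis, %) that each named gene took among the 19 Wnt ligands (left) and the 10 frizzled receptors (right), with 1 bar per library (x axis, grouped by genotype and fraction). Wnt3 fills 96.2 to 97.4% of the Wnt level in every Paneth library, and Fzd9 takes 42.1 to 61.5% of the frizzled level in Paneth and at most 0.512% in non-Paneth libraries.

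Among the receptors, Fzd9 was found almost entirely in the Paneth fraction, and Fzd5 was the main frizzled message of the non-Paneth fraction. Fzd9, a frizzled receptor that in humans lies in the region deleted in Williams syndrome, was at 23.7, 30 and 33.3 CPM in WT Paneth and 41, 55.2 and 48.8 CPM in GRKO Paneth libraries. It had 1, 2 and 6 counts in WT non-Paneth and 3, 6 and 4 counts in GRKO non-Paneth libraries. The fractions were widely apart in both genotypes. Fzd9 was 216-fold higher in Paneth cells in WT (log2 fold change 7.75, SE 0.31, edgeR adjusted p = 2.04e-10) and 323-fold higher in GRKO (8.34, SE 0.292, edgeR adjusted p = 4.4e-11). The WT value rests on 9 counts in non-Paneth cells and was 8.70 on the log2 scale without WT non-Paneth replicate 3, which held 6 of them. Markers of tuft cells moved with the fraction as well. Their sum was 131 to 331 CPM in WT Paneth and 3.8 to 10.5 CPM in WT non-Paneth libraries, with 4 of 4 higher (median log2 fold change 5.85), and 318 to 873 against 92.8 to 369 CPM in GRKO, with 4 of 4 higher (median 2.26). Their part in the level of Fzd9 or Wnt3 was not tested. Its CPM in WT non-Paneth libraries was 0.267 to 1.35% of the WT Paneth mean, near the 0.0392 to 1.19% of the Paneth cell markers.

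Fzd5, the receptor known to be needed for Paneth cell maturation, was at 36.4, 32.4 and 39.9 CPM in WT Paneth libraries and at 135, 174 and 148 CPM in WT non-Paneth libraries. In GRKO it was at 36.9, 71.4 and 55 CPM in Paneth and 241, 201 and 225 CPM in non-Paneth libraries. Every non-Paneth library lay above every Paneth library. Fzd5 was 2.58-fold lower in Paneth cells in WT (log2 fold change -1.37, SE 0.162, edgeR adjusted p = 4.54e-06) and 2.11-fold lower in GRKO (-1.08, SE 0.159, edgeR adjusted p = 7.91e-05). A ratio within a library does not depend on the scaling. The level of Fzd9 per kilobase was 1.98 to 2.8 times that of Fzd5 in WT Paneth libraries and 0.00174 to 0.00801 times in WT non-Paneth libraries. In GRKO the same ratio was 2.34 to 3.36 in Paneth and 0.00256 to 0.00567 in non-Paneth libraries, so the order of both receptors turned around between the fractions in both genotypes.

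Fzd7, a receptor described on Lgr5+ stem cells, was at 19.4, 16.5 and 19.5 CPM in WT Paneth and 27.2, 24.8 and 27.3 CPM in WT non-Paneth libraries. In GRKO it was at 16.6, 23 and 24.3 CPM in Paneth and 46, 51.6 and 45.2 CPM in non-Paneth libraries. CPM was higher in each non-Paneth than in each Paneth library of the same genotype, but after TMM scaling the difference was 0.18 (95% interval -0.07 to 0.44, edgeR adjusted p = 0.216) in WT and -0.19 (-0.44 to 0.05, edgeR adjusted p = 0.204) in GRKO on the log2 scale. Without TMM factors the WT value was -0.52 (edgeR adjusted p = 0.00889), while the median over all genes moved by a similar amount, to -0.68. Fzd7 took 12.3 ± 1.08% of the frizzled level per kilobase in WT Paneth and 13.6 ± 1.78% in WT non-Paneth cells. Fzd5 took 20.3 ± 1.17% and 65.5 ± 3.03%, and Fzd9 49.1 ± 6.05% and 0.263 ± 0.217%. The 7 other frizzled genes shared the rest.

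The co-receptors differed less between the fractions than Wnt3, Fzd9 or Fzd5. Lrp5 was at 61.9, 46.9 and 58.7 CPM in WT Paneth and 96.6, 113 and 108 CPM in WT non-Paneth libraries (log2 fold change after TMM scaling -0.23, 95% interval -0.54 to 0.08, edgeR adjusted p = 0.212). In GRKO it was at 56.4, 99.5 and 70.4 CPM in Paneth and 179, 149 and 143 CPM in non-Paneth libraries (-0.1, interval -0.41 to 0.21, edgeR adjusted p = 0.615). CPM did not overlap between the fractions, and the scaled values did not pass the test. Lrp6 was at 34.4, 34.4 and 37 CPM in WT Paneth and 75.4, 85.1 and 76.8 CPM in WT non-Paneth libraries, also without overlap. It was 1.37-fold lower in WT Paneth cells (-0.46, SE 0.171, edgeR adjusted p = 0.0362), and this call was lost in 10 of 20 alternatives, among them each WT non-Paneth and each GRKO non-Paneth library left out, WT Paneth replicate 1 or 3 left out, and scaling without Lyz1 and the Defa genes, with adjusted p up to 0.205. In GRKO, Lrp6 was at 26, 53.7 and 46.9 CPM in Paneth and 113, 94.3 and 86.9 CPM in non-Paneth libraries (-0.27, interval -0.63 to 0.09, edgeR adjusted p = 0.232). Per kilobase, Lrp6 was at 0.354 to 0.467 times Lrp5 in WT Paneth and 0.455 to 0.497 times in WT non-Paneth libraries, ranges that overlap.

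Taking the fractions against each other in WT, 5 of the 8 genes tested passed the threshold of 0.05 on the adjusted p. Of all 13057 genes tested, 50.7% did, so a count of 5 of 8 is near the background. Wnt3 and Fzd9 were higher in Paneth cells, beside 24.0% of all genes, and Wnt6, Fzd5 and Lrp6 were lower, beside 26.7%. In GRKO, 3 of 8 passed, against 39.2% of all genes. Wnt3 and Fzd9 were again higher (18.0% of all genes) and Fzd5 was lower (21.2%). The median log2 fold change of the 8 genes was -0.02 in WT and -0.15 in GRKO, beside 0.01 and -0.08 over all genes. Without TMM factors the called values fell with the median of all genes, to 5.36 for Wnt3, 7.05 for Fzd9, -4.65 for Wnt6, -2.07 for Fzd5 and -1.16 for Lrp6 in WT, and to 4.70, 7.38 and -2.03 for Wnt3, Fzd9 and Fzd5 in GRKO. Called differences of the 5 genes in WT ran from -4.02 for Wnt6 to 7.75 for Fzd9 on the log2 scale.

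**Figure D3:**
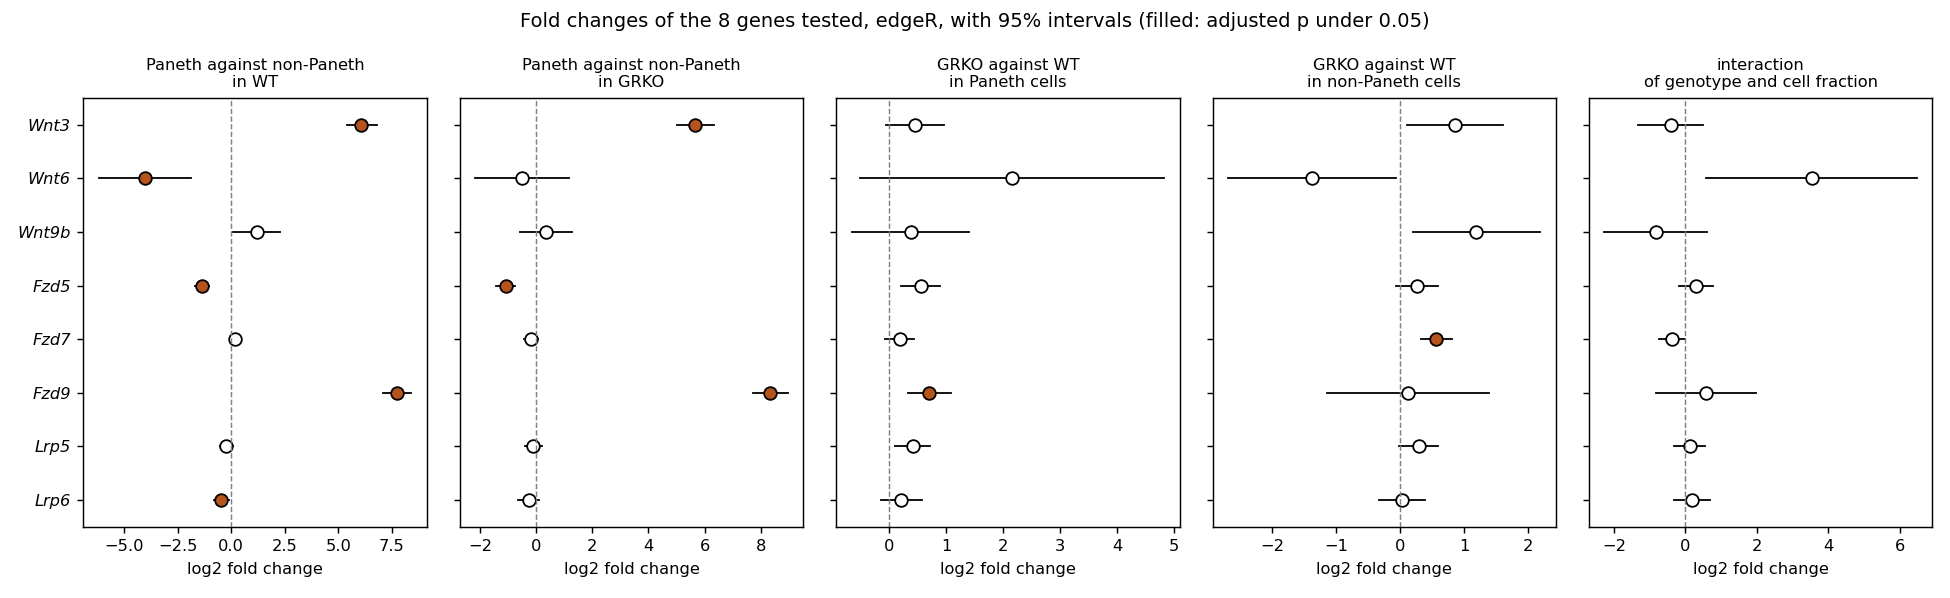
Log2 fold change of the 8 genes tested (x axis, a different range in each panel; genes on the y axis) in the 5 comparisons, each with its 95% interval, from the edgeR fit of all 12 libraries. Filled points passed an adjusted p of 0.05. Wnt3 and Fzd9 stand between 5.67 and 8.34 in both comparisons of the fractions, while called differences between the genotypes are 0.7 for Fzd9 and 0.56 for Fzd7.

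GRKO was compared with WT to ask whether the level of these genes depends on the glucocorticoid receptor. Each group also enters the comparisons of the fractions, so the comparisons share libraries. Fzd9 was 1.63-fold higher in GRKO Paneth cells (log2 fold change 0.7, SE 0.179, edgeR adjusted p = 0.0481), and its 3 GRKO libraries, at 41 CPM or more, all lay above the 3 WT libraries, at 33.3 CPM or less. It was the only 1 of the 8 genes that passed, against 3.22% of all genes in either direction and 1.70% that were higher. The call stood at the threshold and held in 7 of 21 alternatives, with log2 fold changes from 0.52 to 0.83 and adjusted p from 0.000686 to 0.228. It was lost with WT Paneth replicate 1 or 2, GRKO Paneth replicate 2 or 3, or any of the 6 non-Paneth libraries left out, with library totals as scaling, with only both groups in the fit, with the trend on gene length and GC content removed, and with both WT libraries numbered 2 left out. All 8 values were positive, with a median of 0.43 beside 0.03 over all genes. Wnt3 did not overlap between the genotypes either, with 59.9 to 87 CPM in WT and 92.9 to 122 CPM in GRKO, but did not pass (0.45, 95% interval -0.06 to 0.96, edgeR adjusted p = 0.239). Fzd5 (0.55, SE 0.161, edgeR adjusted p = 0.0607) and Lrp5 (0.41, SE 0.146, edgeR adjusted p = 0.0986) overlapped between the genotypes in CPM. For Fzd7 (0.18, interval -0.07 to 0.44), Lrp6 (0.21, -0.15 to 0.58) and Wnt9b (0.37, -0.66 to 1.39) the interval held 0. Wnt6, with 2 counts in WT and 11 in GRKO, gave a ratio of 4.93 after TMM scaling with a 95% counting interval from 1.08 to 45.8, and edgeR's adjusted p was 0.282. Summed tuft cell markers were 131 to 331 CPM in WT and 318 to 873 CPM in GRKO Paneth libraries, and none of the 4 passed. Summed stem cell markers were 5012 to 6502 CPM in WT and 3057 to 4359 CPM in GRKO Paneth libraries, and none of the 4 passed either. The sum was nearly all Olfm4, at 4744 to 6168 CPM in WT and 2778 to 4052 CPM in GRKO. Lgr5, Ascl2 and Smoc2 overlapped between the genotypes. The part of the tuft and stem cell markers in these results was not tested.

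In non-Paneth cells, Fzd7 was higher in GRKO. Its level was 24.8 to 27.3 CPM in the WT and 45.2 to 51.6 CPM in the GRKO libraries, with a wide gap between them. The difference was 1.48-fold after TMM scaling (log2 fold change 0.56, SE 0.116, edgeR adjusted p = 0.00168), passed in 21 of 21 alternatives, and lay between 0.45 and 0.85 in them. It was the only 1 of the 8 genes that passed, while 37.3% of all genes passed and 17.5% were higher. As in Paneth cells, most values were positive, 7 of 8, with a median of 0.27 beside 0.02 over all genes. CPM is not scaled by TMM. With library totals as scaling, the median log2 fold change over all genes was 0.31 here, so a gap in CPM includes this shift. Wnt3 was at 1.3 to 2.48 CPM in WT and 2.58 to 6.1 CPM in GRKO, without overlap before scaling, and did not pass (0.86, SE 0.346, edgeR adjusted p = 0.0676). Its value fell to 0.4 (edgeR adjusted p = 0.343) without GRKO non-Paneth replicate 2, the highest library. Wnt9b had 18 counts in WT and 56 in GRKO libraries together (1.19, SE 0.467, edgeR adjusted p = 0.0562) and Wnt6 had 67 and 35 (-1.38, SE 0.617, edgeR adjusted p = 0.0917). Fzd5 (0.26, 95% interval -0.07 to 0.59), Lrp5 (0.29, -0.02 to 0.59) and Lrp6 (0.02, -0.33 to 0.38) did not pass. Their unscaled CPM did not overlap between the genotypes, a gap that includes the same shift over all genes. Fzd9 had only 9 counts in WT and 13 in GRKO (0.12, interval -1.14 to 1.38).

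Cell type markers in the non-Paneth fraction also differed between the genotypes. Whether cell numbers or RNA per cell changed cannot be told from bulk samples. Summed enterocyte markers were at 18070 to 19537 CPM in WT and 4449 to 5633 CPM in GRKO. Of these, 2 of 5 passed as lower, beside 2586 of all 13057 genes. The 3 proliferation markers rose together, from a sum of 685 to 787 CPM to one of 1428 to 1528 CPM. Stem cell markers summed to 3990 to 5546 CPM in WT and 6294 to 8340 CPM in GRKO, with 3 of 4 higher. All 4 tuft cell markers were higher, with sums of 3.8 to 10.5 CPM in WT and 92.8 to 369 CPM in GRKO. Of 5 goblet cell markers, 2 were lower and none passed as higher. Mean CPM was lower in GRKO for Muc2, Tff3 and Fcgbp. It was higher for Clca1 (1761 in WT, 2570 in GRKO) and Spdef (19.7 in WT, 34.4 in GRKO). The summed leukocyte markers, at 2500 to 2661 CPM in WT and 475 to 1791 CPM in GRKO, were nearly all Cd74, and Cd52 had no count in GRKO. Ptprc, from the same list, was at 0.195 to 0.487 CPM in WT and 0.446 to 9.11 CPM in GRKO. Over the GRKO non-Paneth libraries Ptprc was at 4.83, 9.11 and 0.446 CPM and the tuft cell marker Dclk1 at 92, 136 and 30.8 CPM. Cd3e, of the leukocyte list, was at 0.068, 0 and 0 CPM there. The part of these shifts in the level of Fzd7, Wnt3 or any other of the 9 genes was not tested.

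Whether the effect of the deletion differed between the fractions was tested as an interaction, and none of the 8 genes passed, against 18.7% of all genes. At an unadjusted p under 0.05 there were 2, and DESeq2 called 0. Those 2 were Wnt6 (log2 difference 3.53, SE 1.38, edgeR adjusted p = 0.0876) and Fzd7 (-0.38, SE 0.167, edgeR adjusted p = 0.127). The higher level of Fzd7 in GRKO non-Paneth cells is therefore not shown to be particular to that fraction. For Fzd9 the difference between the effects was 0.58 with a 95% interval from -0.82 to 1.98, and the few counts in non-Paneth cells leave it wide.

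The rest of the pathway was taken from a list of 77 other genes by role, of which 48 passed the filter on low counts. In WT, 28 of the 48 were higher and 4 lower in Paneth cells, with a median log2 fold change of 0.72 beside 0.01 over all genes, of which 24.0% were higher and 26.7% lower. Without TMM factors these were 13 higher and 16 lower with a median of 0.01, relative to a median of -0.68 over all genes. Both genes of ligand secretion were higher, Wls, which carries Wnt proteins to the surface (1.03, SE 0.14, edgeR adjusted p = 1.94e-05), and Porcn, which adds their lipid (1.33, SE 0.423, edgeR adjusted p = 0.0158). These calls held in 19 and 17 of 20 alternatives, and both were lost with library totals as scaling. Porcn overlapped in CPM, at 1.62 to 3.14 in WT Paneth and 0.776 to 1.89 in WT non-Paneth libraries. Of the secreted inhibitors, 3 of 4 tested were higher. Dkk3, of the Dickkopf family, had 49, 80 and 87 counts in WT Paneth against 0, 3 and 0 counts in WT non-Paneth libraries, and Wif1, which binds Wnt proteins, had 16, 14 and 20 against 1, 0 and 0. All 4 genes of the R-spondin axis that were tested were higher, among them the receptor Lgr5 (1.62, SE 0.182, edgeR adjusted p = 2.8e-06).

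Among the other receptors in WT, 3 of 6 tested frizzled genes were higher and 1 lower in Paneth cells. Fzd4 was at 2.74, 2.92 and 2.07 CPM in Paneth and 12.3, 20 and 20.1 CPM in non-Paneth libraries (-2.05, SE 0.291, edgeR adjusted p = 2.95e-05). Fzd3 was higher (2.34, SE 0.528, edgeR adjusted p = 0.00167) at 1.88 to 3.68 against 0.556 to 1.3 CPM. In the cytoplasm, Nkd1, an inhibitor that the pathway itself induces, was at 20, 16.3 and 17.8 CPM in Paneth and 1.09, 1.32 and 0.716 CPM in non-Paneth libraries (4.81, SE 0.235, edgeR adjusted p = 1.14e-09). Of 12 relay genes, 3 were higher, 3 lower and 6 did not pass. Of 9 target genes, 7 were higher, led by Ephb3 (2.46, SE 0.143, edgeR adjusted p = 5.92e-09) and Sox9 (1.78, SE 0.143, edgeR adjusted p = 8.72e-08), both known to be expressed in Paneth cells. All 4 stem cell markers, of which Lgr5 and Ascl2 are also pathway genes, were higher in WT Paneth cells too (median 1.28), with sums of 5012 to 6502 CPM against 3990 to 5546 CPM, and so were all 4 tuft cell markers. The part of these cell types in the pathway genes was not tested. In GRKO, 16 of the 48 were higher and 3 lower, with a median of 0.2 beside -0.08 over all genes, of which 18.0% were higher and 21.2% lower. There 2 of 4 stem cell markers (median 0.17) and 4 of 4 tuft cell markers were higher. Without TMM factors these were 6 higher and 32 lower with a median of -0.77, relative to -1.05 over all genes. Dkk3 had 120, 172 and 91 counts in GRKO Paneth and 0, 1 and 2 counts in GRKO non-Paneth libraries. Nkd1 (4.48, SE 0.207, edgeR adjusted p = 7.52e-10) and Wnt5a, a ligand mostly of the beta-catenin-independent branch (4.13, SE 0.654, edgeR adjusted p = 0.000147), were also higher in GRKO Paneth than in GRKO non-Paneth cells.

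**Figure D4:**
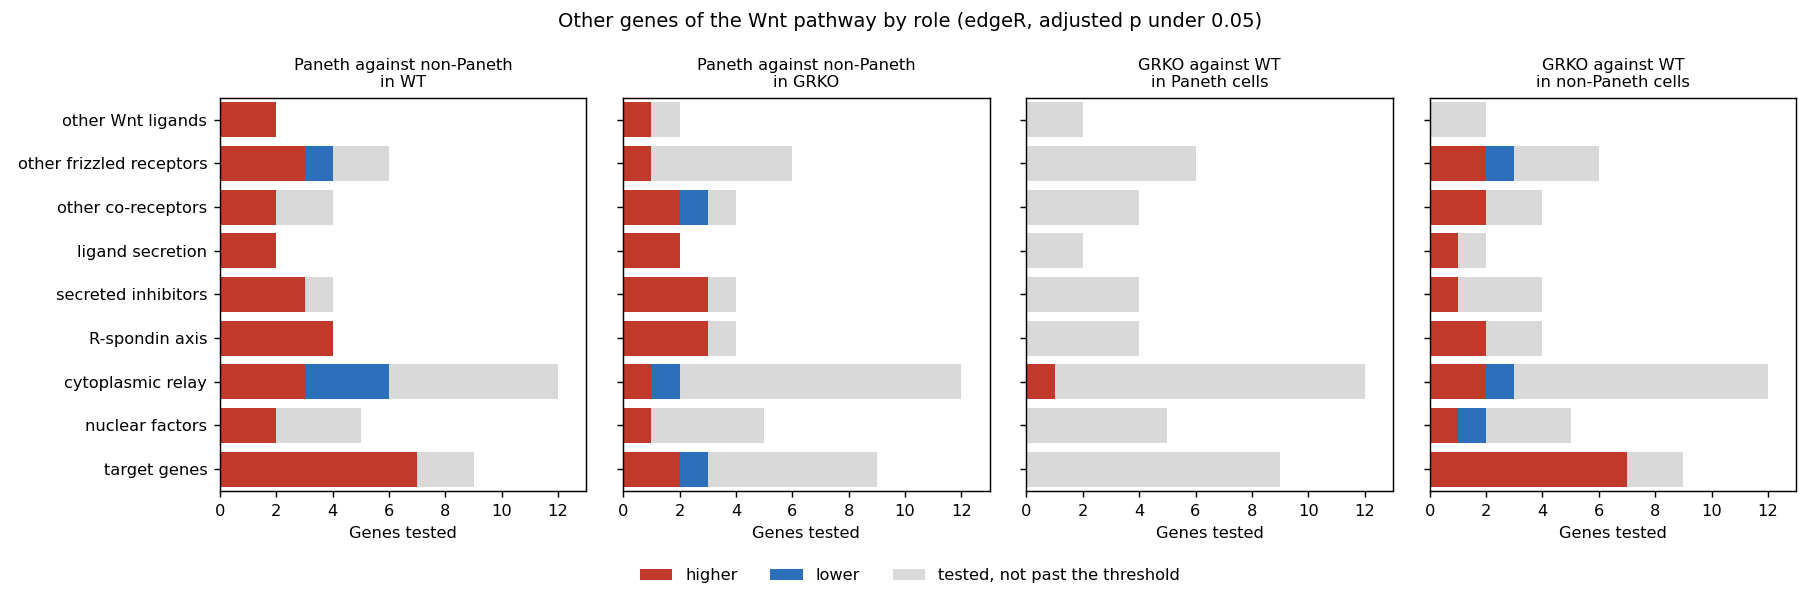
Number of other Wnt pathway genes tested in each role (x axis, genes; roles on the y axis) that were higher, lower or not past an adjusted p of 0.05 in 4 comparisons. In WT, 28 of 48 were higher in Paneth cells. Between the genotypes, 1 of 48 passed in Paneth cells, while 18 were higher and 3 lower in non-Paneth cells.

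Between the genotypes, 1 of the 48 genes passed in Paneth cells, where 3.22% of all genes did, a share near this one. Nkd1 was at 25.5, 38.8 and 35.6 CPM in GRKO and 20, 16.3 and 17.8 CPM in WT Paneth libraries (0.86, SE 0.175, edgeR adjusted p = 0.0411), and this call held in 9 of 21 alternatives. It was lost with library totals, with only both groups in the fit, with both WT libraries numbered 2 left out, and with any of WT Paneth replicates 1 and 2, GRKO Paneth replicates 2 and 3, the WT non-Paneth libraries or GRKO non-Paneth replicates 1 and 2 left out. In non-Paneth cells, 18 were higher and 3 lower in GRKO, with a median of 0.3 beside 0.02 over all genes, of which 37.3% passed and 17.5% were higher. Without TMM factors these were 25 higher and 1 lower with a median of 0.59, relative to 0.31 over all genes. Target genes made up 7 of the 18, with Ascl2, a stem cell factor (1.06, SE 0.225, edgeR adjusted p = 0.00237), and Ephb2 (0.85, SE 0.116, edgeR adjusted p = 8.03e-05) in front, and Lgr5 and Ascl2 belong to the stem cell markers given above as well. Ror2 (0.99, SE 0.191, edgeR adjusted p = 0.00108) and Ptk7 (0.72, SE 0.142, edgeR adjusted p = 0.0012), co-receptors of the beta-catenin-independent branch, and Nkd1 (1.18, SE 0.262, edgeR adjusted p = 0.0027) were higher too. The 3 lower genes were Fzd4 (-0.91, SE 0.256, edgeR adjusted p = 0.012), Dvl1, which relays the signal from frizzled (-0.92, SE 0.185, edgeR adjusted p = 0.00149), and Tcf7l2, the main TCF factor of the gut (-0.61, SE 0.179, edgeR adjusted p = 0.0153). The shifts of enterocyte, proliferation, stem and tuft cell markers went with these results as well, and their part was not tested.

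For each of the 8 genes, the gene with the most similar level over the 12 libraries was sought among all genes tested, by Pearson correlation of log2 CPM. All 12 points share the 2 fractions, and a gene that differs strongly between these correlates highly with others that do. Wnt3 was most like Pycr1 (r = 0.998), an enzyme of proline synthesis, and Fzd9 most like Samd5 (r = 0.997). Fzd5 was most like Myo1d (r = 0.989), a class I myosin, Lrp5 like Smpd3 (r = 0.978), Fzd7 like Ppat (r = 0.96), the first enzyme of purine synthesis, and Lrp6 like Ccdc85c (r = 0.94). Wnt9b was most like Mycl (r = 0.947) and Wnt6 like Tram2 (r = 0.925), on few counts. With Spearman correlation, Smpd3 and Ccdc85c were found again for Lrp5 and Lrp6, and other genes for the remaining 6.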

How the data were processed

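Per the labels and the methods, the authors made stranded TruSeq libraries from sorted cells, sequenced single ends, trimmed reads with Trimmomatic 0.39 and mapped them with STAR 2.7.10a to mm39 (GRCm39). The deposited values are raw counts of reads per gene in 12 libraries. Which strand column was counted is not stated in the sources used here. Of 55414 gene identifiers, 54749 (98.8%) were matched to GENCODE vM39 names.

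Counts were analysed in R 4.3.3 with edgeR 4.0.16, using filterByExpr (13057 genes kept), TMM factors and 1 robust quasi-likelihood fit of the 4 groups over all 12 libraries. P-values were adjusted by the Benjamini-Hochberg method over all genes tested, with a threshold of 0.05. The study used DESeq2 at a false discovery rate of 5%, and DESeq2 1.42.0 was run as an alternative, since edgeR is the test chosen for counts here. CPM are counts per 1000000 of the library total, and levels per kilobase divide CPM by the union of exons. Intervals are at 95% and, for ratios and zeros, cover counting error only. With 11126297 to 15910292 counts per library, 3 counts in all 165098846 correspond to 0.018 CPM. The edgeR steps were tried on simulated counts, in which no gene of low mean count was changed. The other scripts were not tried in this way.

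The members and gene lists were chosen with earlier results of these data known. Named genes were the 9 members, Nr3c1, for each role of the pathway list at most the 2 called genes of largest fold change, and the gene most correlated with each member (prior count 2). Promoters of 250 bases were read from GRCm39. Replicate numbers were checked as pairs by correlating deviations from the group means. Between WT fractions, r was 0.349, 0.229 and 0.238, above 0.1 for each number, so numbers were taken to pair these libraries. Between GRKO fractions r was 0.0129, 0.262 and 0.465, and between genotypes it was -0.098 to 0.166. Not every number passed 0.1 there, so pairing was not assumed, which does not show that these libraries were unpaired. The main fit used no pairing in any comparison. Alternatives were DESeq2, RLE factors, library totals, Lyz1 and Defa genes outside the scaling, no filter, a replicate block and only the groups compared. Further ones were a trend on gene length and GC content, both WT libraries numbered 2 left out, and each library left out.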

Additional observations from a re-analysis of the deposited data

Results flagged for a closer look

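For 12 of the 48 other pathway genes tested, the difference between GRKO and WT was not the same in Paneth and non-Paneth cells by the interaction term of the edgeR fit. None of the 9 ligand, receptor and co-receptor genes described above was among them. Of all 13057 genes tested, 18.7% passed, 1496 with a positive and 950 with a negative value. With library totals as scaling 0 of the 48 were positive and 13 negative, in place of 3 and 9. Of all genes, 752 were then positive and 1836 negative. Values are the log2 fold change in Paneth cells minus that in non-Paneth cells.

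The interaction was negative for 9 genes, of which Lgr5 and Ascl2 are also stem cell markers. Ascl2 had the value furthest from 0, at -1.44 (edgeR adjusted p = 0.00793), and Tnfrsf19, a receptor known from crypt stem cells, stood at -1.10 (edgeR adjusted p = 0.00667), both past the threshold in 19 of 19 alternatives. The T cell factor gene Tcf7 stood at -0.99 (edgeR adjusted p = 0.0165) and held in 18 of 19. The receptor genes Fzd2 at -1.20 (edgeR adjusted p = 0.0244) and Lgr5 at -0.77 (edgeR adjusted p = 0.0443) held in 14 and 8 of 19, and Axin2, a feedback inhibitor, at -0.64 (edgeR adjusted p = 0.0492) held in 7 of 19. The other 3 were the target genes Myc at -0.85 (edgeR adjusted p = 0.00318), Cd44 at -0.70 (edgeR adjusted p = 0.0126) and Ephb2 at -0.52 (edgeR adjusted p = 0.0384), which fall outside the rule for named genes and were added after their values were seen.

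The interaction was positive for 3 genes. Fzd4 stood at 1.38 (edgeR adjusted p = 0.0278), Dvl1 at 0.85 (edgeR adjusted p = 0.038) and Tcf7l2 at 0.83 (edgeR adjusted p = 0.0376), and they held in 9, 8 and 8 of 19 alternatives. All 4 stem cell markers had a negative interaction past the threshold, as did 2 of 3 proliferation and 3 of 4 tuft cell markers, and 1 of 5 enterocyte markers had a positive one. The part of these markers in the 12 values was not tested.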

How the results depend on the processing

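Of 802 fold changes of the 8 tested ligand, receptor and co-receptor genes under alternatives, 731 kept their sign and their side of the threshold, 27 passed only under the alternative, 24 were lost and 20 changed sign. Among the called values of these 8 genes 177 of 201 were kept, 24 were lost and none changed sign. The cause of these changes was not tested.

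With library totals as scaling, the Paneth against non-Paneth value in WT became -0.52 for Fzd7, and in GRKO it became -0.59 for Wnt9b, -0.01 for Fzd8, -0.44 for Ptk7, -0.47 for Wls, -0.10 for Lgr5 and -0.14 for Znrf3, of which Fzd8, Ptk7, Wls, Lgr5 and Znrf3 had been called higher. The interaction became -0.14 for Lrp5 and -0.05 for Lrp6. In GRKO, 6 members and 10784 genes were then called between the fractions. Splits of calls then were 1097 higher and 7892 lower in WT, 816 and 9968 in GRKO, and 4348 and 1478 between genotypes in non-Paneth cells, against 3133 and 3491, 2344 and 2773, and 2283 and 2586.

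Between genotypes in non-Paneth cells, Lrp6 was at -0.04 with DESeq2, RLE factors, or Lyz1 and Defa genes outside the scaling, and at -0.03 with the trend on gene length and GC content removed. Fzd9 was at -0.09 with both WT libraries numbered 2 left out. With 1 library left out at a time, the ranges were -0.15 to 0.05 for Lrp6 and -0.27 to 0.93 for Fzd9 in that comparison, and -0.29 to 0.10 for Lrp5 between GRKO fractions. For the interaction they were -0.64 to 0.01 for Wnt3, -0.27 to 0.93 for Fzd9, -0.06 to 0.24 for Lrp5 and -0.15 to 0.64 for Nr3c1.

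Between genotypes in Paneth cells, the 1 member called became 2 with DESeq2, 0 with library totals, 3 without the filter, 2 with the replicate block, 0 with only the groups compared, 0 with the trend removed, 0 with both WT libraries numbered 2 left out, and 0 to 3 with 1 library left out. The 420 genes called there became 1421 with DESeq2, 2 with library totals, 1780 without the filter, 977 with the replicate block, 265 with the trend removed, 1 with both WT libraries numbered 2 left out, and 0 to 1618 with 1 library left out, 0 being without GRKO Paneth replicate 2. With only the groups compared edgeR called 0, with 2341 at an unadjusted p under 0.05. With Lyz1 and Defa genes outside the scaling, 173 were higher and 318 lower, against 222 and 198.

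Between genotypes in non-Paneth cells, the 1 member called became 2 with DESeq2, 5 with library totals, 2 without the filter, 2 with the replicate block, 4 with the trend removed, and 1 to 2 with 1 library left out. The 4869 of 13057 genes called there became 4998 with DESeq2, 5826 with library totals and 4991 with the replicate block. They became 5012 of 24077 without the filter, 5527 of 13036 with the trend removed, and 3636 to 5504 with 1 library left out. For the interaction, 1 member was called without the filter and 0 to 1 with 1 library left out, and 1563 to 2607 genes were called, 1563 being without WT non-Paneth replicate 2. The replicate block left 5 members called between WT fractions, where the numbers pair the libraries, with 6950 genes, and 3 between GRKO fractions.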
